A study of Mus musculus with 5 samples.

Results

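The genes described here are 32 members of the integrated stress response and of the amino acid supply that it controls, taken by symbol out of the 33456 genes in the deposited tables; all 32 symbols were found. They comprise 6 transcription factors, 5 feedback genes and brakes on growth, 7 enzymes of amino acid and one-carbon synthesis, 7 amino acid transporters and 7 aminoacyl-tRNA synthetases. They were measured in plasma cells, B cells that have matured to secrete antibody, from male C57Bl6/N mice aged 8 to 12 weeks that had received neither immunization nor treatment. Cells were sorted in 2 rounds for high CD138 and for absence of Ly6g and CD11c, and their transcript 3′ ends were counted by droplet single-cell sequencing. The sort split them by B220, a form of CD45 that many plasma cells lose, and by 2NBDG, a fluorescent glucose analog that marks uptake. The groups were B220+2NBDG- cells of the spleen, then splenic B220-2NBDG- cells, splenic B220+2NBDG+ cells as the third group, splenic B220-2NBDG+ cells as the fourth, and B220-2NBDG+ cells of the bone marrow as the last; values per library below follow that order. Each group was 1 library pooled from 3 mice, so a difference between libraries had no replicate check.

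In the integrated stress response, kinases that sense amino acid shortage, endoplasmic reticulum stress, heme loss or double-stranded RNA phosphorylate the initiation factor eIF2. Protein synthesis then slows while translation of the Atf4 messenger increases, so ATF4 protein can rise without a change in its transcript. ATF4 and its partners of the C/EBP family switch on genes that import, make and charge amino acids, together with feedback genes such as Trib3 and Chac1. Plasma cells depend on amino acid supply because they translate and export antibody at a high rate, and the heavy chain CD98 (Slc3a2) is a well known plasma cell transporter.

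The 5 libraries held between 894 and 1296 barcodes, and 5468 cells were used after 8 cells with T cell transcripts were left out. Levels are CPM, the UMI counts of a gene scaled to a common total of UMIs outside the immunoglobulin genes, of which the libraries held 3950427 to 6666166. At most 4 barcodes were shared by any of the 10 pairs of libraries. The plasma cell marker list of 16 genes summed to between 120302 and 308973 CPM, led by Jchain, and none of its genes was at 0 in all libraries. Marker lists of T cells (highest sum 21.3 CPM), neutrophils (4.07 CPM) and erythroid cells (3.89 CPM) were near 0, that of macrophages reached 42.3 CPM, and that of B cells lay between 14212 and 21111 CPM. One library stood apart: 14.2% of splenic B220+2NBDG- cells were called cycling, against 0.107% to 1.25% in the others, so the calls between libraries that involve it are also given without these cells.

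Some of the members share a sequence feature. The members were chosen as genes of this response, with targets of ATF4 among them, so the share below is not independent of the choice. ATF4 and C/EBP proteins bind a composite element, the C/EBP-ATF response element, whose core is written TGATGNAA. Of the 32 members, 26 were matched in the table of RefSeq promoters used here (GRCm38.p6, 250 bases before to 50 bases after the gene start), and 8 of these, 30.8%, held these letters on either strand. Among all 32851 promoters in that table, counted by promoter rather than by gene, 3.97% held them. Windows from 7 of the 8 genes are shown because they carry the element in genes of every role; each is read 5′ to 3′ on the gene's own strand, and the capitals mark the element, which appears as TTNCATCA when it lies on the opposite strand.
Asns, chr6:7693214-7693243, minus strand: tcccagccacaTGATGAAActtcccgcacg
Chac1, chr2:119351038-119351067, plus strand: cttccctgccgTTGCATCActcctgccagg
Trib3, chr2:152344028-152344057, minus strand: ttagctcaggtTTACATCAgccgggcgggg
Nupr1, chr7:126625562-126625591, minus strand: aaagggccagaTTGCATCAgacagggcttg
Slc7a11, chr3:50443661-50443690, minus strand: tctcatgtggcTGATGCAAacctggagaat
Slc1a4, chr11:20332699-20332728, minus strand: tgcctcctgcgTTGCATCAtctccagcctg
Gars, chr6:55037960-55037989, plus strand: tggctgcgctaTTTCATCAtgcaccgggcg
Counted from the RefSeq start of each gene, which differs from the annotated ends given for genes below, the element began 23 bases before the start of Asns and 193 bases before that of Chac1, and in Trib3 it began 14 bases after the start. A match describes the letters only, and their absence from the window of another member says nothing about the factor. Expression of the 8 genes differed widely: Asns lay between 96.3 and 184 CPM, whereas Slc7a11, the cystine importer, lay between 0 and 1.56 CPM.

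The members together took between 3324 and 4918 CPM, and 1 gene dominated them. Slc3a2 (chr19:8706882-8723369, minus strand), the shared heavy chain of several amino acid exchangers, held between 27.0% and 44.3% of the members' UMIs. The next most abundant was Phgdh, the first enzyme of serine synthesis. In all, 26 of the 32 members had a mean of at least 10 CPM, and the 6 below it were Nupr1, Trib3, Sesn2, Slc7a11, Slc7a1 and Slc1a4. Coordinates of genes are those of GRCm38. For 10 members, Ddit3, Mars, Atf5, Cebpb, Psph, Shmt2, Sars, Wars, Aars and Slc7a5, the annotation overlaps a gene on the opposite strand, by 26545 bases for Slc7a5 and by 15 to 908 bases for the others. Sesn2, Cars and Wars overlap a gene on the same strand by 89 to 6089 bases. Whether the counting used strand is not given in the sources used here, so the counts of these genes are uncertain. CPM values from 3′ ends count transcripts, so levels of different genes can be set side by side, although capture of each 3′ end may differ.

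**Figure D1:**
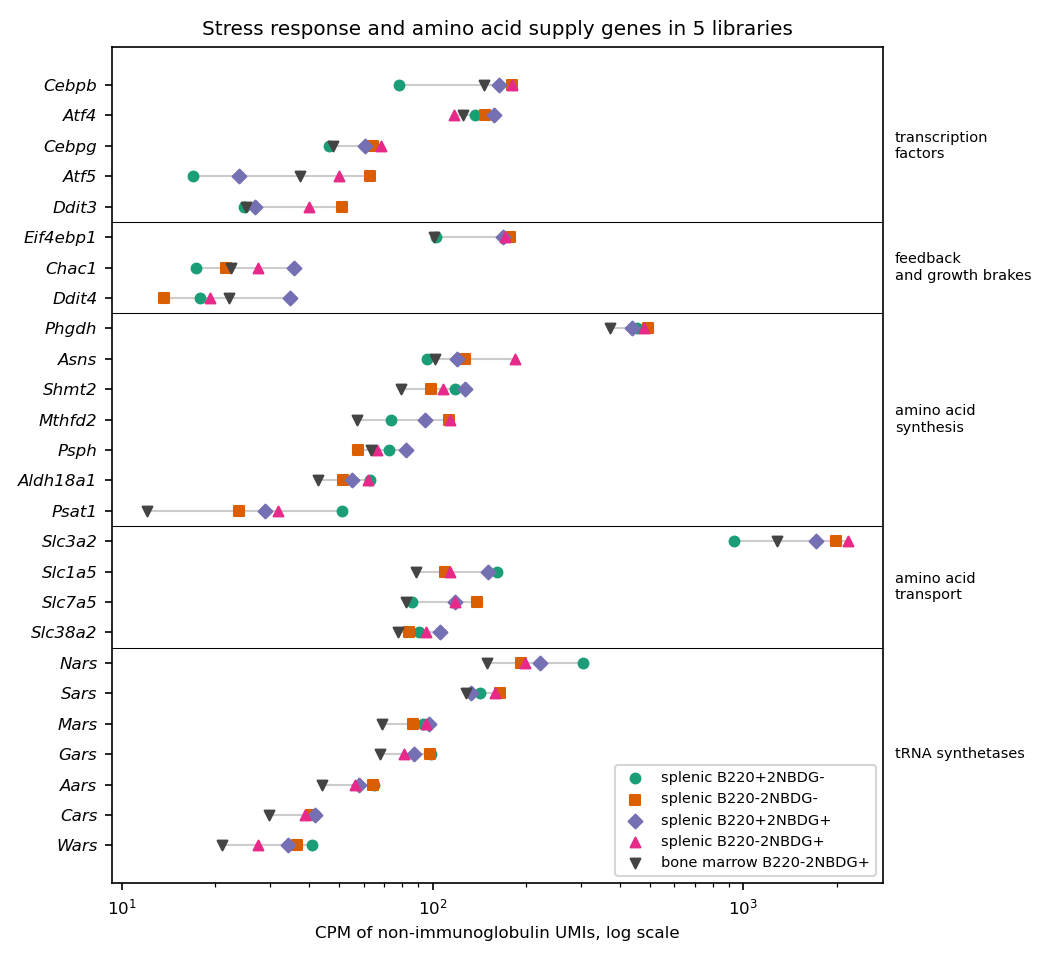
Level of the 26 members with a mean of at least 10 CPM (log axis, CPM of non-immunoglobulin UMIs) in the 5 libraries, grouped by role; each symbol is 1 library and the grey line spans them. Slc3a2 lies between 933 and 2178 CPM, to the right of every other member, and Atf4 spans only 117 to 157 CPM.

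Among the transcription factors, Atf4 itself (chr15:80255184-80257541, plus strand) was nearly level across libraries. Its values were 137, 147, 157, 117 and 125 CPM, a range of 1.34-fold. Atf5 (chr7:44812256-44816658, minus strand), a related factor of mitochondrial and amino acid stress, measured 17.0, 62.9, 23.9, 49.9 and 37.5 CPM. It was low in both B220+ libraries and higher in all 3 B220- ones. Ddit3, which encodes the stress factor CHOP, measured 24.8, 51.2, 26.8, 40.0 and 25.1 CPM. Cebpb measured 77.7, 180, 163, 180 and 146 CPM, so splenic B220+2NBDG- was the low library for this C/EBP partner of ATF4. Cebpg, the other C/EBP partner, measured 46.4, 64.3, 60.7, 68.1 and 47.8 CPM. Nupr1, a small chromatin-bound stress protein, stayed between 3.0 and 8.35 CPM.

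The feedback genes were low apart from Eif4ebp1, which encodes the translation repressor 4E-BP1. Eif4ebp1 measured 103, 178, 169, 171 and 101 CPM, with splenic B220+2NBDG- and bone marrow lowest. Chac1, which degrades glutathione, measured 17.3, 21.7, 35.7, 27.3 and 22.5 CPM. Ddit4, which encodes the mTORC1 inhibitor REDD1, measured 17.9, 13.7, 34.8, 19.2 and 22.1 CPM, with splenic B220+2NBDG+ highest. Trib3 and Sesn2, a pseudokinase that inhibits ATF4 and a leucine-sensing brake on mTORC1, did not pass 10.2 CPM in any library.

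Of the synthetic enzymes, Phgdh measured 454, 496, 439, 478 and 374 CPM. Psat1 (chr19:15904678-15947337, minus strand), which catalyses the next step of serine synthesis, measured 51.0, 23.8, 29.0, 31.9 and 12.0 CPM. Its order was unlike that of Phgdh, with splenic B220+2NBDG- highest and bone marrow lowest. Without cycling cells Psat1 was at 27.6 CPM in splenic B220+2NBDG-, and splenic B220-2NBDG+, at 31.95 CPM, was then highest. Asns (chr6:7675169-7693254, minus strand), asparagine synthetase, measured 96.3, 127, 120, 184 and 102 CPM. Shmt2, which passes a carbon from serine to mitochondrial folate, measured 118, 98.9, 128, 108 and 79.3 CPM. Mthfd2 (chr6:83305691-83325908, minus strand), the mitochondrial folate enzyme after it, measured 73.5, 113, 94.6, 114 and 57.2 CPM. Aldh18a1, which starts proline synthesis, measured 62.9, 51.6, 55.2, 62.0 and 42.7 CPM, and Psph, which completes serine synthesis, lay between 57.7 and 82.2 CPM. For 5 of these 7 enzymes bone marrow was the lowest library, and the exceptions were Asns and Psph. Against splenic B220-2NBDG+ cells all 7 were lower in bone marrow, beside 71.7% of the 5836 genes with a mean of at least 10 CPM.

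Among transporters, Slc3a2 measured 933, 1991, 1718, 2178 and 1286 CPM, lowest in splenic B220+2NBDG- and next lowest in bone marrow. Slc7a5, the light chain that joins CD98 to form the large neutral amino acid exchanger LAT1, measured 86.0, 139, 118, 118 and 82.0 CPM, with the same pair of libraries lowest. The glutamine importer Slc1a5 measured 162, 109, 151, 113 and 88.7 CPM, with both B220+ libraries highest. Slc38a2 lay between 77.2 and 106 CPM. Slc7a1, Slc1a4 and Slc7a11 did not pass 13.2 CPM in any library.

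The tRNA synthetases, which charge tRNAs with their amino acids, were lowest in bone marrow for all 7 members. This was not particular to them. Against splenic B220-2NBDG+ cells, 71.7% of the 5836 genes with a mean of at least 10 CPM were lower in bone marrow, as were all 13 other cytosolic synthetases. Nars measured 304, 193, 222, 199 and 149 CPM, Sars 143, 165, 133, 159 and 128 CPM, and Mars 93.5, 86.4, 97.5, 94.9 and 68.5 CPM. Gars measured 98.6, 98.1, 87.3, 80.8 and 67.8 CPM. Aars measured 64.7, 64.1, 57.8, 56.2 and 44.1 CPM, and Wars (chr12:108860030-108894174, minus strand), the tryptophan enzyme, 41.0, 36.6, 34.3, 27.3 and 21.1 CPM. Cars lay between 29.7 and 41.7 CPM. Summed over the 7 genes, the level was 786 CPM in splenic B220+2NBDG- and 509 CPM in bone marrow, with the other libraries between 655 and 683 CPM.

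Members were next compared between pairs of libraries. The call needed a ratio of 2 or more, with no less than 25 CPM and 50 UMIs on the higher side, and the intervals are exact 95% conditional binomial intervals that cover counting error only. Another choice of total shifts every ratio of a comparison: over all UMIs, immunoglobulin included, the median of all genes moved on the log2 scale by -0.59, 0.19, -0.25, 0.53 and -0.12 for 2NBDG in B220+ cells, 2NBDG in B220- cells, B220 in 2NBDG+ cells, B220 in 2NBDG- cells and bone marrow. In B220+ spleen, 2 members were higher with 2NBDG and none lower, while 5.77% of 3987 genes were called in either direction, 1.15% as higher and 4.61% as lower. Cebpb was 2.1-fold higher (1.88 to 2.35) and Chac1 2.07-fold higher (1.64 to 2.63). Ddit4 and Slc3a2 missed the rule at 1.95-fold (1.54 to 2.47) and 1.84-fold (1.78 to 1.90). Without cycling cells neither gene was called: the Cebpb ratio was 1.89 and the Chac1 ratio 1.66. Within IgM cells the ratios were 2.34 and 2.63, and within IgG cells 2.06 and 1.95. Slc3a2 was higher with 2NBDG in each isotype, by 1.06, 1.15 and 1.31 on the log2 scale in IgM, IgG and IgA cells, and by 0.77 in IgM cells without cycling cells. Scaling to all UMIs turned the member calls from 2 higher and 0 lower to 0 higher and 2 lower. It turned the calls over all genes from 46 higher and 184 lower to 8 higher and 705 lower.

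In B220- spleen no member was called with 2NBDG, where 3.01% of 3687 genes were, 0.895% as higher and 2.12% as lower. The median log2 ratio of the 26 members with at least 10 CPM was 0.03, against -0.08 for the 5836 genes at that level. With 1 library a group no test was made, so no p-value stands beside this count of 0.

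Between B220+ and B220- cells of the 2NBDG- spleen 1 member was higher and 4 were lower in B220+ cells, where 9.09% of 4026 genes were called in either direction, 5.91% higher and 3.18% lower. The median log2 ratio of the 26 members with at least 10 CPM was -0.05, with 13 above and 13 below 0. Atf5 had the lowest ratio at 0.269 (0.215 to 0.335). Cebpb had a ratio of 0.433 (0.388 to 0.482), Slc3a2 of 0.469 (0.454 to 0.484) and Ddit3 of 0.483 (0.395 to 0.589). Thus 3 of the 4 lower members were transcription factors. Psat1 was 2.14-fold higher (1.73 to 2.65). Cycling cells moved with this comparison: 172 were in the B220+ library and 16 in the B220- one. Without them Atf5 and Cebpb were still called, at ratios of 0.31 and 0.47, and the ratios of Slc3a2 (0.58), Ddit3 (0.57) and Psat1 (1.19) were under 2-fold in either direction.

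Isotype also moved with B220 in the 2NBDG- spleen, since 34.3% of the B220+ cells and 5.71% of the B220- cells were IgG. Among IgM cells alone Atf5 kept a ratio of 0.28 and Cebpb of 0.47, whereas Slc3a2 had 0.56. Within IgG and IgA cells the Slc3a2 ratios were 0.73 and 0.72. Scaling changed the split of member calls from 1 higher and 4 lower to 3 higher and 0 lower over all UMIs, to 0 higher and 5 lower without Jchain and to 0 higher and 4 lower with TMM factors. In the same order, calls over all genes went from 238 higher and 128 lower to 813 and 24, 173 and 219, and 179 and 143. Over all UMIs the Atf5 ratio was 0.39 and that of Slc3a2 0.68, so their direction was the same.

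In the 2NBDG+ spleen 1 member, Atf5, was lower in B220+ cells, at a ratio of 0.479 (0.381 to 0.600), where 3.93% of 3715 genes were called, 2.45% as higher and 1.48% as lower. Its ratio was 0.674 within IgM cells, 0.905 within IgA cells and 0.374 within IgG cells, and in none of these classes was it called. Over all UMIs its ratio was 0.403, with its level then under the 25 CPM of the rule. Both libraries differed in isotype here too, with IgM cells making up 62.4% of the B220- library and 39.2% of the B220+ one.

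Between bone marrow and spleen, both sorted as B220-2NBDG+, 1 member was called, where 2.58% of 3490 genes were, 1.17% as higher and 1.4% as lower. Psat1 was lower in bone marrow at a ratio of 0.377 (0.277 to 0.511). The other members leaned the same way: 24 of 26 lay below 0, with a median log2 ratio of -0.40, beside 71.7% of the 5836 genes and a median of -0.16. The 2 above 0 were Atf4 and Ddit4. IgA cells made up 59.0% of the bone marrow library and 23.9% of the splenic one. The median log2 ratio within IgM cells was -0.49 for members and -0.04 for all genes. Within IgG cells these medians were -0.24 and -0.26, and within IgA cells -0.14 and -0.08. The Slc3a2 ratio was -0.76 on the log2 scale over all cells, -0.68 within IgM cells and 0.32 within IgA cells. Mthfd2 had -0.99, -0.94 and -0.32 in the same order, and Asns -0.85, -1.29 and -0.41.

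**Figure D2:**
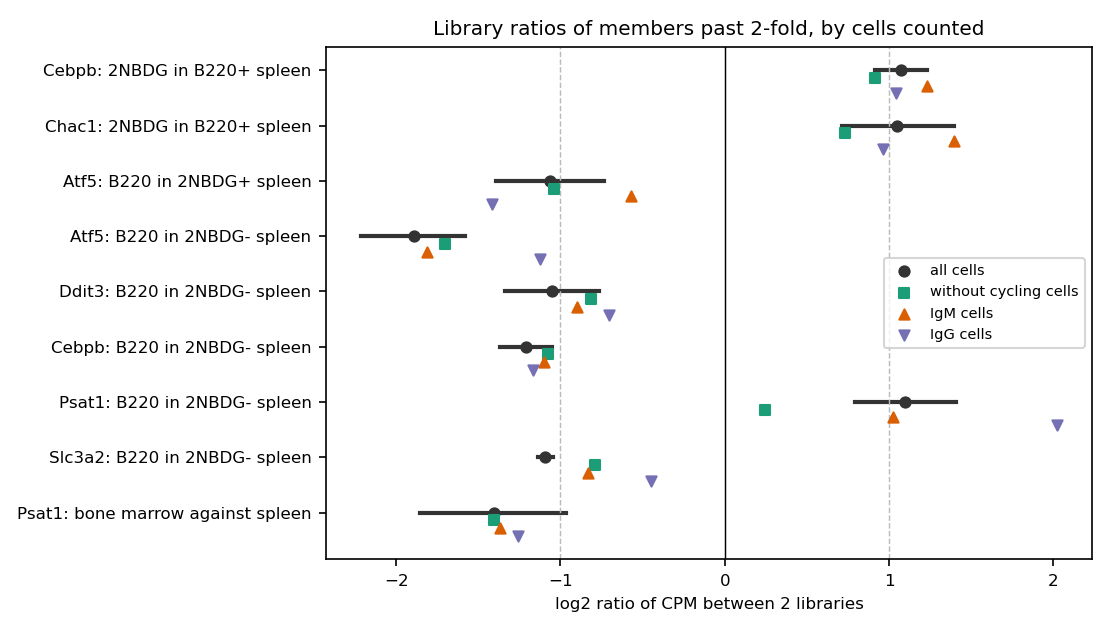
Log2 ratio of CPM between 2 libraries for each member past the 2-fold rule (dashed lines), counted over all cells (circles, with the 95% counting interval), without cycling cells, and in IgM or IgG cells alone. Psat1 in the 2NBDG- spleen moves from 1.10 to 0.25 without cycling cells, and Atf5 in the same comparison stays at -1.70.

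The isotype of a cell could be read from its heavy chain transcripts, and cells of different isotype shared a library. UMIs were therefore summed per library and isotype and compared across the 5 libraries with the quasi-likelihood test of edgeR, blocked by library and adjusted by Benjamini-Hochberg over 7948 genes, 30 of them members. Because library is the block, the p-values measure only how far the isotype difference varied from library to library. These 5 libraries were different sorted groups and not replicates. Whether each drew on its own mice is not stated, so this spread may be technical.

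Compared with IgM cells, IgG cells had lower transcript levels of Slc3a2, Mthfd2, Asns, Ddit3 and Atf5, each by more than 2-fold, and a higher level of Ddit4. Of the 30 members tested 15 fell and 1 rose, where 6.29% of all genes were called, 3.7% as lower and 2.59% as higher. The median log2 difference was -0.60 for members and 0.00 for all genes. In 16 members the CPM was lower in IgG cells of every library, against 9.05% of genes, and in 1 it was higher in every library, against 9.56%.

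Slc3a2 measured 1294, 2304, 2704, 2969 and 1855 CPM in IgM cells and 481, 658, 1071, 1098 and 999 CPM in IgG cells. The groups did not overlap: the lowest IgM library lay above the highest IgG library. Its log2 difference was -1.44 ± 0.14 (SE, n = 5 libraries, edgeR adjusted p = 6.5e-07). Slc7a5, the CD98 partner, measured 103, 158, 181, 144 and 101 CPM in IgM and 65.2, 57.2, 75.5, 58.4 and 124 CPM in IgG cells. It was lower in the 4 splenic libraries and higher in bone marrow, with a log2 difference of -0.87 ± 0.19 (edgeR adjusted p = 0.0058). Slc1a5, Slc38a2 and Slc7a1 did not pass the test.

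Among the enzymes, Mthfd2 measured 93.2, 124, 155, 149 and 77.4 CPM in IgM cells and 41.0, 54.0, 53.9, 42.3 and 31.9 CPM in IgG cells. No IgG value reached the lowest IgM value, and the log2 difference was -1.46 ± 0.15 (edgeR adjusted p = 7.5e-07). Asns measured 115, 138, 197, 216 and 88.5 CPM in IgM cells and 62.7, 31.8, 60.6, 82.6 and 63.9 CPM in IgG cells, a log2 difference of -1.30 ± 0.17 (edgeR adjusted p = 3.9e-05). Again the isotypes did not overlap. Phgdh (-0.56 ± 0.12), Shmt2 (-0.60 ± 0.14) and Aldh18a1 (-0.45 ± 0.12) also fell, while Psph (-0.41 ± 0.16) and Psat1 (-0.61 ± 0.20) did not pass.

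Of the 6 transcription factors 4 fell in IgG cells. Ddit3 measured 30.4, 56.8, 40.5, 49.8 and 41.3 CPM in IgM and 15.6, 25.4, 14.2, 30.2 and 13.4 CPM in IgG cells, a log2 difference of -1.29 ± 0.19 (edgeR adjusted p = 0.00017). Atf5 measured 19.9, 70, 40.0, 59.3 and 37.1 CPM in IgM and 13.1, 28.6, 9.04, 24.2 and 28.6 CPM in IgG cells, with a difference of -1.25 ± 0.24 (edgeR adjusted p = 0.0019). It was lower in each library although the isotypes overlapped between libraries. Cebpb (-0.70 ± 0.21) and Cebpg (-0.49 ± 0.14) fell by less. Atf4 measured 146, 152, 180, 110 and 126 CPM in IgM and 121, 146, 147, 141 and 165 CPM in IgG cells. Its log2 difference of -0.06 ± 0.13 did not pass (edgeR adjusted p = 0.88), and it was lower in IgG cells of 3 libraries and higher in 2.

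The feedback genes and growth brakes went both ways. Eif4ebp1 measured 138, 204, 266, 224 and 139 CPM in IgM and 57.0, 118, 109, 76.6 and 104 CPM in IgG cells, a difference of -1.16 ± 0.18 (edgeR adjusted p = 0.00026). Chac1 fell by 0.96 ± 0.27 on the log2 scale. Ddit4 (chr10:59949669-59951834, minus strand), an mTORC1 inhibitor that glucocorticoids and hypoxia also induce, was the only member to rise. It measured 13.5, 12.3, 25.9, 17.7 and 11.7 CPM in IgM and 27.5, 28.6, 45.6, 28.2 and 37.0 CPM in IgG cells. It was higher in IgG cells of 5 of 5 libraries, by 0.99 ± 0.20 on the log2 scale (edgeR adjusted p = 0.0030). Of the tRNA synthetases only Sars (-0.62 ± 0.13) and Gars (-0.46 ± 0.13) fell.

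**Figure D3:**
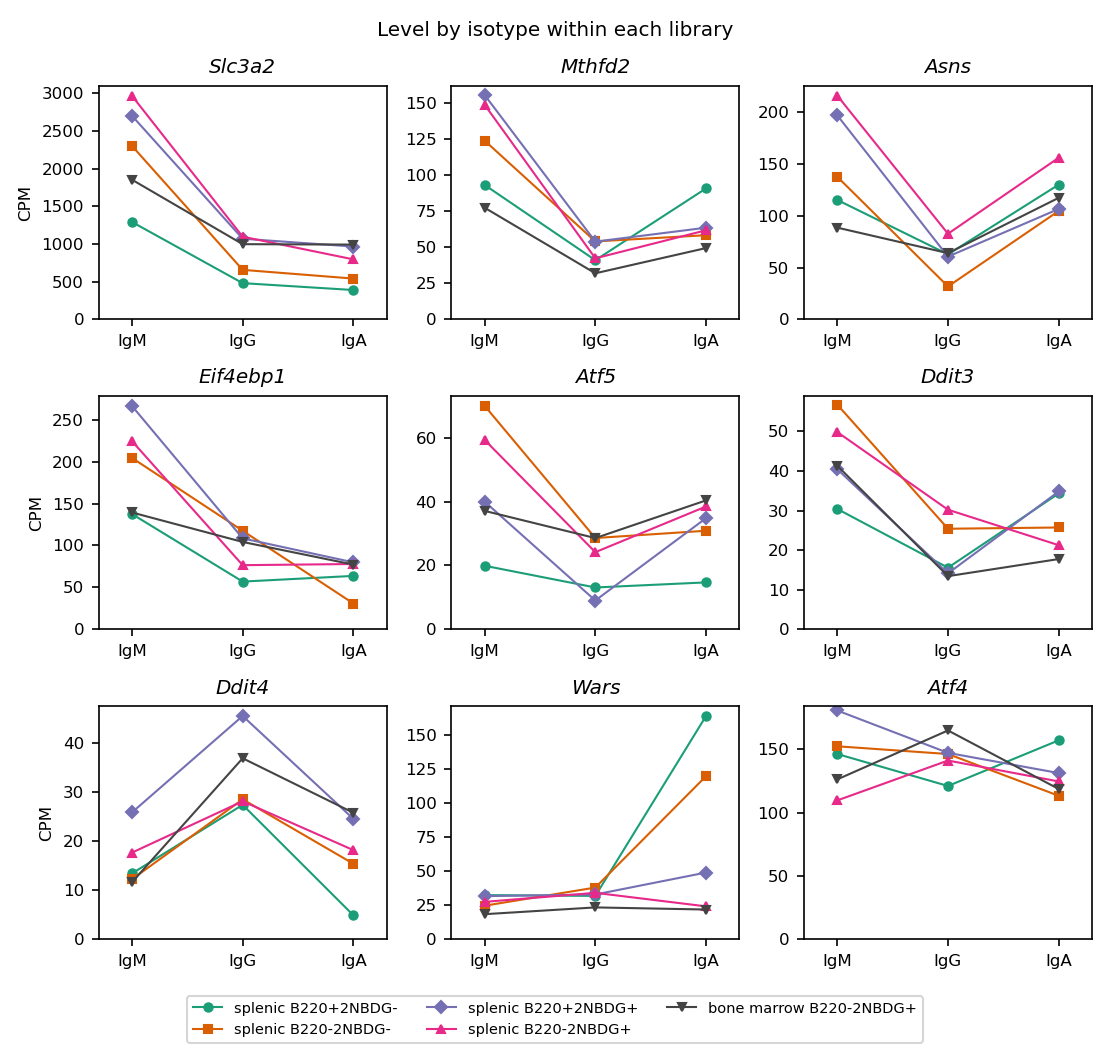
CPM of 9 members (linear axes from 0) in IgM, IgG and IgA cells, with 1 line per library. Slc3a2 and Eif4ebp1 are highest in IgM cells of every library, Mthfd2 and Asns are lowest in IgG cells, Ddit4 is highest in IgG cells, Wars is highest in IgA cells of the 2NBDG- spleen, and Atf4 has no common order.

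The IgG comparison rested unevenly on the libraries. It called 7 members without splenic B220+2NBDG+ and 10 without splenic B220-2NBDG+, and 13 to 17 without each of the others. Calls over all genes fell in the first 2 settings too. They were 84 higher and 143 lower of 7346 genes, and 103 and 199 of 8239, in place of 206 and 294 of 7948. Asns, Mthfd2 and Ddit3 were called under all 12 alternatives, Slc3a2, Eif4ebp1, Atf5 and Ddit4 under 11, and Phgdh, Slc7a5, Sars and Shmt2 under 8 to 10. Chac1 was called under 6, Aldh18a1 and Cebpb under 5, Gars under 4 and Cebpg under 2. DESeq2 called 2 transcription factors, 2 feedback genes, 4 synthetic enzymes, 2 transporters and 1 tRNA synthetase. Cells called cycling also differed, with the cell cycle list higher in IgG cells for 9 of 25 genes; without cycling cells 15 members were called.

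Against IgM cells, IgA cells had lower Slc3a2, Eif4ebp1, Slc7a5, Mthfd2 and Phgdh, but not lower Asns, and 2.51-fold higher Wars. In all 10 members fell and 1 rose, where 13.2% of genes were called, 6.87% as lower and 6.29% as higher. The median log2 difference was -0.46 for members and 0.00 for all genes, and 13 of the 30 members were lower in every library, against 16.3% of genes. None was higher in every library, against 5.16% of genes. On non-immunoglobulin totals without TMM factors the calls over all genes were 319 higher and 843 lower in place of 500 and 546, and those of members 1 higher and 15 lower.

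In IgA cells Slc3a2 measured 390, 542, 967, 797 and 993 CPM, below the IgM range in every library, and its log2 difference was -1.51 ± 0.14 (edgeR adjusted p = 8.9e-08). Eif4ebp1 measured 63.8, 30.9, 79.9, 78.0 and 77.2 CPM, a difference of -1.37 ± 0.19 (edgeR adjusted p = 2.2e-05). No IgA value of either gene reached the lowest IgM value. Slc7a5 fell by 0.91 ± 0.20, Mthfd2 by 0.75 ± 0.14 and Phgdh by 0.57 ± 0.12 on the log2 scale. Ddit3, Chac1, Cebpb, Mars and Aars fell as well, by between 0.51 and 0.89. Asns measured 130, 105, 107, 156 and 117 CPM in IgA cells, and its difference from IgM was -0.12 ± 0.16 (edgeR adjusted p = 0.72). Atf5 (-0.30 ± 0.22) and Atf4 (-0.04 ± 0.13) did not pass either.

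Wars, which is known to be induced by interferon as well as by ATF4, measured 32.6, 24.8, 31.8, 27.6 and 18.5 CPM in IgM cells and 164, 120, 49.2, 24.3 and 22 CPM in IgA cells. It was high in IgA cells of both 2NBDG- spleens, and in splenic B220-2NBDG+ it was lower in IgA than in IgM cells. The log2 difference was 1.33 ± 0.26 (edgeR adjusted p = 0.00080), and it was 1.01 without splenic B220+2NBDG- and 1.04 without splenic B220-2NBDG-. The 67 Wars UMIs of splenic B220+2NBDG- IgA cells came from 35 of 77 cells, and the 70 of splenic B220-2NBDG- from 44 of 135 cells, with at most 5 in any cell.

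Without splenic B220-2NBDG+ 7 members were called between IgA and IgM cells, and without each of the others 8 to 11. Without cycling cells 13 were called. Over all genes 392 were higher and 446 lower without splenic B220-2NBDG+, and 527 and 537 without cycling cells. Slc3a2, Eif4ebp1, Wars, Mthfd2, Phgdh and Mars were called under all 12 alternatives. A list of 8 natural killer cell markers summed to between 19.1 and 68.6 CPM in IgA cells and 1.59 to 10.5 CPM in IgM cells, led by Gzma, with 3 of the 8 genes at 0 in all libraries. Of the immediate early list, which responds to cell handling, 4 of 10 genes fell in IgA cells, its sum running from 1962 to 2889 CPM against 3108 to 3892 CPM in IgM cells. The part of either list in the member differences was not tested.

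**Figure D4:**
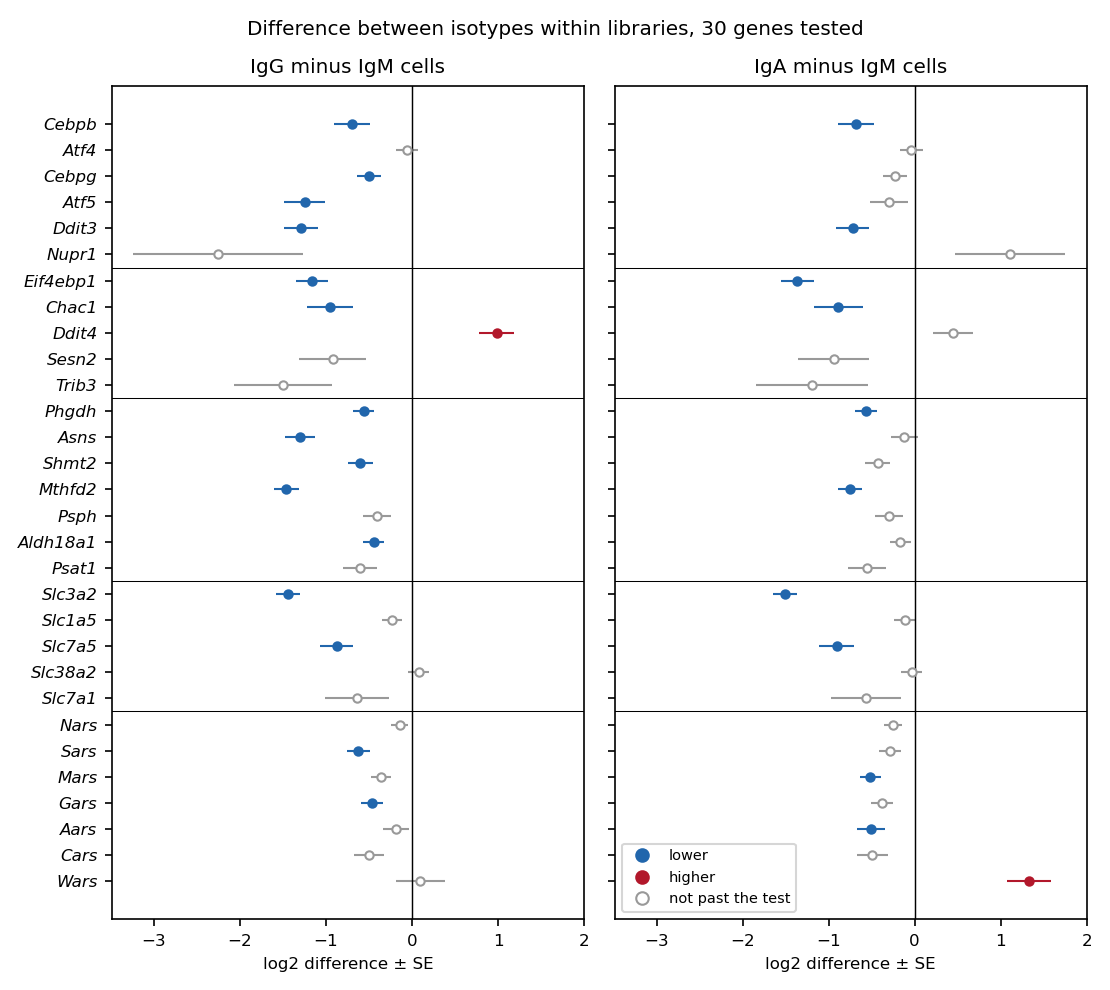
Log2 difference ± SE between IgG and IgM cells (left) and between IgA and IgM cells (right) for the 30 members tested, from edgeR over 5 libraries; filled points passed the adjusted threshold of 0.05 and lines separate the roles. Slc3a2 is near -1.5 in both panels, Asns is at -1.30 on the left and -0.12 on the right, and Wars and Ddit4 are the filled points above 0.

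IgG and IgA cells were compared in the same fit, and 5 members were lower in IgG cells, where 9.57% of genes were called, 4.63% as lower and 4.94% as higher. In 3 members the CPM was lower in IgG cells of every library, against 4.39% of genes, and in 3 it was higher, against 15%. On totals without TMM factors 1 member was higher and 3 were lower, and over all genes 648 were higher and 223 lower in place of 393 and 368. Asns had a log2 difference of -1.18 ± 0.19 (edgeR adjusted p = 0.00016), lower in 5 of 5 libraries. Mthfd2 (-0.72 ± 0.17), Atf5 (-0.95 ± 0.29) and Wars (-1.23 ± 0.30) were also lower. Wars did not pass without splenic B220+2NBDG- (edgeR adjusted p = 0.185). Slc3a2, low in both switched isotypes, differed between them by 0.07 ± 0.14 and did not pass. Nupr1 passed with a difference of -3.37 ± 1.03, but the 16 UMIs of its highest IgA value, 39.2 CPM in splenic B220+2NBDG-, all came from 1 cell. Without splenic B220+2NBDG-, splenic B220+2NBDG+ or splenic B220-2NBDG+, 3 members were called, and without cycling cells 5. Over all genes these settings called 279 higher and 204 lower, 260 and 212, 288 and 260, and 377 and 357 in that order.

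Other genes of the pathway were also compared between IgG and IgM cells, list by list, where 6.29% of all genes were called. Of 16 tested genes for the eIF2 kinases, eIF2, its exchange factor eIF2B and the phosphatases, none was called by edgeR. None was called among the 13 other cytosolic tRNA synthetases, whose median log2 difference was 0.02, beside -0.36 for the 7 members of that kind. No gene passed among 11 mitochondrial synthetases or among 11 other genes of amino acid synthesis. In lists of 11 to 16 genes, no call is near the share over all genes. At an unadjusted edgeR p under 0.05 these lists held 4, 1, 0 and 5 genes in that order, and DESeq2 called 0 in each. Of 8 other amino acid transporters Slc7a7 (-0.77 ± 0.16) and the glycine transporter Slc6a9 (-2.24 ± 0.49) fell. Of 6 other targets of the response Herpud1, an endoplasmic reticulum degradation gene, fell by 0.55 ± 0.11.

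The same lists were compared between IgA and IgM cells, where 13.2% of all genes were called. Glutamine synthetase Glul (1.67 ± 0.41) and the branched-chain aminotransferase Bcat1 (1.52 ± 0.43) rose. Slc7a7 fell by 1.91 ± 0.20, Slc43a1 by 1.61 ± 0.46, the alanine aminotransferase Gpt2 by 1.13 ± 0.35 and the aspartyl synthetase Dars by 0.71 ± 0.13. Tars, Ppp1cb and Herpud1 fell as well. ER chaperone genes are induced by another branch of the stress response, and 3 of 12 rose in IgG and 3 of 12 in IgA cells, with none falling in either.

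Cycling cells were compared with the other cells of the same library in the 3 libraries that held at least 10 of them: 172 cells in splenic B220+2NBDG-, 16 in splenic B220-2NBDG- and 14 in splenic B220+2NBDG+. Cycling cells had much less Slc3a2 and Eif4ebp1 and more Psat1. Of 31 members tested 2 rose and 12 fell, where 20.7% of 8775 genes were called, 10.8% as higher and 9.93% as lower. The CPM was lower in cycling cells of all 3 libraries for 9 members, against 19.3% of genes, and higher for 4, against 29%. This fit had 2 residual degrees of freedom and edgeR set its prior to infinity, so each gene's spread was taken from the trend over all genes, and DESeq2 called 5 members. Without TMM factors 2 members rose and 6 fell, where 1586 of all genes rose and 600 fell.

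Slc3a2 measured 288, 215 and 529 CPM in cycling cells and 1180, 2040 and 1745 CPM in the other cells of these libraries. All cycling values lay under all others, and the log2 difference was -2.50 ± 0.15. Eif4ebp1 measured 59.5, 29.6 and 42.0 CPM in cycling and 120, 182 and 172 CPM in other cells, a difference of -1.63 ± 0.22. Slc3a2 and Eif4ebp1 were called under all 9 alternatives. Psat1 measured 112, 44.4 and 50.4 CPM in cycling and 27.6, 23.3 and 28.5 CPM in other cells. It was higher in 3 of 3 libraries, by 1.39 ± 0.26, but its values in the smaller cycling groups were 6 UMIs each, and without splenic B220+2NBDG- it did not pass (edgeR adjusted p = 0.72). Aars rose by 0.65 ± 0.23 in edgeR, whereas DESeq2 called 0 of the 7 tRNA synthetases.

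The 6 transcription factors were called lower in cycling cells by edgeR. DESeq2 called only 1 of the 5 for which it gave an adjusted p-value. Nupr1 had 0 UMIs in the cycling cells of each library, against 3.55 to 6.84 CPM in the other cells, where no fold is given because the other cells were also low. For Atf5 (-1.47 ± 0.37) and Cebpg (-0.78 ± 0.28) the lower level held in 3 of 3 libraries, and for Atf4 (-0.64 ± 0.20), Cebpb (-0.78 ± 0.21) and Ddit3 (-1.40 ± 0.35) in 2 of 3. Atf4 measured 110, 81.4 and 159 CPM in cycling and 147, 148 and 157 CPM in other cells. These directions depended on the total used. Cycling cells held 25.8% to 41.3% immunoglobulin UMIs and other cells 52.2% to 65.1%, and scaling to all UMIs moved the median of all genes from -0.07 to 0.86. Member calls then were 11 higher and 3 lower, where 3911 of all genes were called higher and 90 lower. With that total Atf4, Cebpb, Cebpg, Asns, Sars and Wars were above 0. Atf5, at -0.55, and Ddit3, at -0.47, remained below 0 there without passing the test.

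Beside these members, enzymes of cytosolic folate metabolism rose in cycling cells: Shmt1 by 2.90 ± 0.59 and Mthfd1 by 2.05 ± 0.50 on the log2 scale. Got2, Cth and Bcat1 rose and Pycr1 fell, so 5 of 13 other synthesis genes were higher and 1 lower. Of 6 other targets of the response 4 fell, namely Herpud1 (-0.95 ± 0.14), Map1lc3b (-0.92 ± 0.14), Sqstm1 (-0.78 ± 0.22) and Ern1 (-1.49 ± 0.37), as did the eIF2 phosphatase subunit Ppp1r15a (-1.32 ± 0.27). Other lists moved with them. The immediate early list had 9 of 10 genes lower, the plasma cell marker list 10 of 16 and the B cell marker list 6 of 9. The plasma cell markers summed to between 50771 and 75286 CPM in cycling cells and between 146914 and 250414 CPM in the others, and the B cell markers to between 5489 and 13521 CPM against 17207 to 22479 CPM. The part of these lists in the result was not tested. Without splenic B220+2NBDG- 7 members were called between cycling and other cells, and without splenic B220+2NBDG+ 9. Over all genes these settings called 338 higher and 410 lower, and 790 and 614, in place of 949 and 871.

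**Figure D5:**
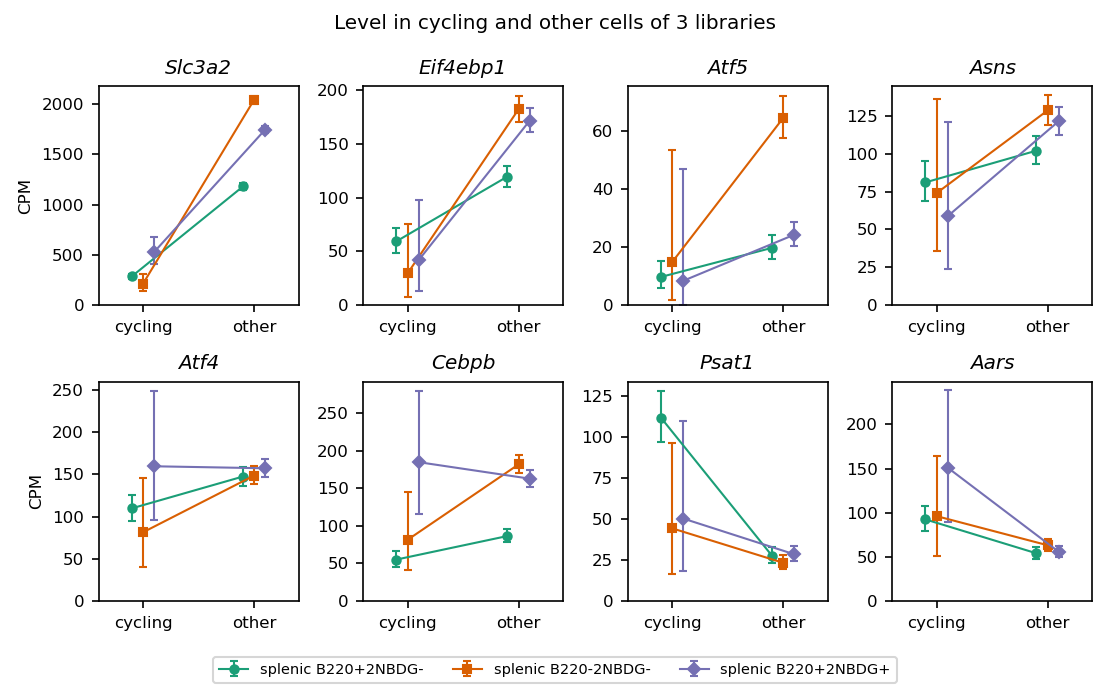
CPM of 8 members (linear axes from 0) in cycling and other cells of 3 libraries, with exact 95% Poisson intervals of the counts and a line joining the cells of 1 library. Slc3a2 and Eif4ebp1 are lower in cycling cells of all 3 libraries, Psat1 and Aars are higher, and Atf4 and Cebpb are not lower in those of splenic B220+2NBDG+.

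Slc3a2 also varied between cells of one library more than most genes of its level. These cells include all isotypes and the cycling cells, whose Slc3a2 levels differed, and the part of those differences was not tested. After each cell was thinned to 1000 non-immunoglobulin UMIs, its Fano factor, the variance over the mean, was 2.94, 2.92, 2.56, 2.72 and 1.75. Genes of similar mean had medians of 1.25, 1.28, 1.24, 1.23 and 1.15, and between 95% and 96.4% of them lay below Slc3a2. Cebpb lay above 93.3% to 97.9% of its peers, with factors between 1.12 and 1.21. Atf4 had factors of 1.01, 1.11, 1.04, 0.936 and 1.08, above 39.9%, 89.4%, 69.9%, 4.51% and 88.0% of its peers, with no common order over the libraries.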

How the data were processed

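The deposited files hold raw UMI counts per gene and cell barcode, and the authors made them with Cell Ranger 2.1 on GRCm38, per the submitters' processing notes, which name no further setting. Cells needed 500 UMIs, 200 genes and at most 10% mitochondrial UMIs, and cells with at least 3 of 12 T cell markers were left out. No clustering was used. UMIs were summed per library and scaled to non-immunoglobulin UMIs, and library ratios carried a floor of 3 UMIs. A cell took an isotype when 70% of at least 10 heavy chain constant UMIs came from 1 gene. At 90% dominance splenic B220+2NBDG+ held 214 IgG cells in place of 552, and bone marrow 44 in place of 84. Splenic B220+2NBDG- then held 396 in place of 417. The source of the remaining heavy chain UMIs was not tested. The median member difference between IgG and IgM cells was then -0.56 (log2). A cell was called cycling with at least 3 cell cycle UMIs after thinning to 1000 UMIs. Sums of at least 10 cells entered edgeR 4.0.16 (TMM, filterByExpr, quasi-likelihood test, library as block, adjusted threshold 0.05), run in R 4.3.3 and tested on simulated data; DESeq2 1.42.0 was an alternative. Pairing came from the library itself, since isotypes and cycling classes were cells of the same library. Doublets were predicted with scanpy 1.11.5 and left out only as an alternative, 77 cells or 1.41%. Other steps used Python 3.11.15 and scipy 1.17.1.

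The members and gene lists were chosen with earlier results of these data known. Members called in any comparison, and the 3 with the highest mean of each role, are given in every library; the others are given by range. Of the other pathway genes, up to 4 per list and direction are given with values. Cebpd, in one of the lists, was not analysed here. Some results on other pathway genes and some promoter windows are not reported here.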

Additional observations from a re-analysis of the deposited data

Results flagged for a closer look

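For 4 of the 32 members the ratio with 2NBDG pointed in opposite directions in B220+ and B220- spleen, with both 95% counting intervals clear of a ratio of 1. With 1 library in each group the difference was not tested. The share of all genes that meet this rule was not counted, so the 4 cannot be called particular to these members. Atf4 had a log2 ratio of 0.20 in B220+ and -0.32 in B220- cells, a difference of 0.53. Atf5 had 0.49 and -0.34, a difference of 0.83. Slc7a5 had 0.45 and -0.23, a difference of 0.69. Psat1 went the other way, with -0.82 in B220+ and 0.42 in B220- cells, a difference of -1.23. Without cycling cells its ratios were 0.05 and 0.46, in 1 direction. Scaling to all UMIs shifts every log2 ratio by -0.59 in B220+ and by 0.19 in B220- cells. With that total the ratios of Atf4, Atf5 and Slc7a5 point the same way in both, whereas those of Psat1 stay opposite.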

How the results depend on the processing

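No paired analysis was possible for the library comparisons because each group holds 1 library. Members called with 2NBDG in B220+ cells were 2, and 4 without Jchain, 0 as a mean over cells, 0 without cycling cells, 4 in IgM cells and 6 with isotypes weighted equally. Calls over all genes changed with these settings as well. They went from 46 higher and 184 lower to 33 and 66 without cycling cells, and to 62 and 256 with isotypes weighted equally. With 2NBDG in B220- cells the count was 0, and 1 with no filter, 3 in IgA cells and 1 with isotypes weighted equally. For B220 in 2NBDG+ cells it was 1, and 2 with no filter and 0 over all UMIs, in IgM, IgG or IgA cells, in IgM cells without cycling cells, and with isotypes weighted equally. For B220 in 2NBDG- cells it was 5, and 3 over all UMIs, 8 with no filter, 2 as a mean over cells, 2 without cycling cells, 3, 2 and 0 in IgM, IgG and IgA cells, 1 in IgM cells without cycling cells and 3 with isotypes weighted equally; Ddit3 turned to 0.42 (log2) in IgA cells. For bone marrow it was 1, and 2 at 10 CPM and 20 UMIs, 4 with no filter, 2 as a mean over cells, 2 in IgM cells with or without cycling cells and 0 in IgA cells.

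Without the replicate block, 3, 6, 1 and 8 members were called between IgG and IgM, IgA and IgM, IgG and IgA, and cycling and other cells, in place of 16, 11, 5 and 14. Calls over all genes fell too. In that order they were 17 higher and 49 lower, 184 and 212, 157 and 149, and 767 and 670. With the block they were 206 and 294, 500 and 546, 393 and 368, and 949 and 871. Leaving out 1 library gave 7 to 17, 7 to 11, 3 to 5 and 7 to 11. IgA against IgM gave 17 with no expression filter. IgG against IgA gave 3 with DESeq2 and 3 at 90% isotype dominance. Cycling gave 5 with DESeq2 and 8 without TMM, and over all UMIs Atf4 (0.36), Cebpb (0.24), Cebpg (0.088), Asns (0.16), Sars (0.40) and Wars (0.10) were reversed. The causes were not tested, beyond the fewer cells or libraries that some settings leave. Over the member differences counted across alternatives, 806 were classed as unchanged and 138 as no longer passing. Another 30 passed only under the alternative and 6 were classed as reversed. These 6 do not cover every change of sign. Between cycling and other cells 26 members lay below 0 in the main fit and 9 over all UMIs. Between IgG and IgA cells 20 lay below 0 in the main fit and 10 on non-immunoglobulin totals without TMM factors. Counting limits the members under 10 CPM and the cycling groups of 16 and 14 cells.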
